A study of Drosophila melanogaster with 6 samples.

Results

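Molecular chaperones were examined as a group of 40 genes in muscle-enriched lysates of Drosophila melanogaster larvae in which cofilin was depleted from muscle. Members were chosen by symbol. Symbols beginning with Hsp, Hsc70, DnaJ, Pfdn, or CCT and a digit were taken, together with Gp93, Droj2, mrj, Hsf and l(2)efl, provided that the mean scaled count over the 6 samples was at least 10. Of 13517 genes in the table, 41 matched by symbol and 40 reached the minimum. The gene left out was Hsp70Bc, with a mean of 7.05, whereas the lowest members kept were Hsp70Ba at 24.5 and Hsp70Ab at 26.6. The choice also named Hop, the adaptor that links Hsp70 to Hsp90. No symbol matched it exactly, and RefSeq (Release 6) lists Hop as a synonym of Stip1, which is described beside the Hsp90 class and not counted as a member.

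The knockdown group (tsrRNAi) expressed an RNA interference construct against tsr (twinstar, the fly cofilin, an actin-severing protein) and the control group (mCherryRNAi) one against mCherry, a fluorescent protein foreign to the fly. Both groups carried Mhc-Gal4, a driver under the myosin heavy chain promoter, so expression of the construct was directed to muscle. Other tissues of the lysate were not targeted, and tsr was measured only in the whole lysate. Each group had 3 samples numbered as biological replicates, and each sample pooled 7 to 10 larvae at the late stage of the last larval instar, per the growth protocol and design text. The labels' tissue field names adult body wall instead.

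Chaperones bind unfolded proteins and help them fold. Small heat shock proteins hold denatured proteins without using ATP. Hsp70 proteins, helped by J proteins, bind and release short unfolded stretches, Hsp90 proteins act on nearly folded clients, and the ring-shaped chaperonin CCT folds actin and tubulin handed over by prefoldin. In muscle, chaperones and their cochaperones maintain sarcomere proteins under mechanical load. In flies, the small heat shock genes of cytological region 67B are known to respond both to heat and to the moulting hormone ecdysone.

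Values are scaled counts, read counts divided by 1 size factor per sample, and a gene was called when its adjusted p-value was under 0.05 by limma on log2(scaled count + 1), with Benjamini-Hochberg adjustment over all 11720 genes with a mean of at least 10. Each sample had between 37138289 and 41900871 reads in genes. The number of genes above 0 was 13166 to 13258 in the knockdown samples and 12035, 13233 and 12511 in control replicates 1 to 3. Control replicate 2 stood apart from the other controls, correlating with them at r = 0.759 and 0.813 across genes, which are not independent replicates. Among the knockdown samples the values were 0.959 to 0.963. The targeted gene, tsr, had 6966, 7070 and 5035 scaled counts in the knockdown and 39133, 29266 and 25816 in the control. Its log2 fold change was -2.30 (adjusted p = 0.00525). A two-sided exact permutation test reached p = 0.1, below which 3 samples against 3 cannot go. All 14 muscle markers were detected, and together they held 21.6%, 18.1% and 21.3% of gene signal in the knockdown against 12.8%, 9.39% and 9.74% in the control. The 8 epidermal and cuticle markers in the table held 5.25%, 5.42% and 3.02% in the knockdown against 10.0%, 10.98% and 13.1% in the control. In such bulk samples, fewer cells of a type and less RNA per cell cannot be told apart.

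Of the 40 chaperone genes, 5 were called lower in the knockdown and 0 higher. The 5 were l(2)efl, Hsc70-3, Hsp70Bb, Gp93 and DnaJ-H. They make up 12.5% of the members, against 11.6% of all genes called in either direction, 7.02% called lower and 4.58% called higher, so the share called was near the background. Fold changes leaned to one side, with 31 members below 0 (77.5%) against 46.1% of all genes. The median log2 fold change was -0.31 for the members and 0.06 for all genes. Without control replicate 1 the number of members below 0 was 23, so the lean rested partly on that library. It was 31 to 33 when any other sample was left out. Groups did not overlap in 10 members, all with the knockdown below the control (25%, against 19.6% of all genes), and in 0 members with the knockdown above (against 16.8% of all genes). Separation of the groups in either direction was seen for 36.4% of all genes. In the remaining 30 members the groups overlapped. An unadjusted p-value under 0.05 was reached by 9 members, against 29.1% of all genes. DESeq2 on the recovered reads called 7 members lower and 0 higher, adding Hsp23 and Hsp27, beside 13.4% and 10.7% of all genes. edgeR called 4 lower and 0 higher, beside 6.65% and 3.24% of all genes, with Hsc70-3 no longer called.

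Single libraries weighed on these counts. Without control replicate 2, the library that stood apart, 7 members were called lower and 4 higher, beside 7.86% and 20.7% of all genes. The members gained were Hsp23 and Hsp27 on the lower side and Hsc70-1, Hsp60B, Hsp60C and Hsp60D on the higher side. Without control replicate 1, 2 were called lower (Gp93 and DnaJ-H) and 1 higher (Pfdn2), beside 5.0% and 5.3% of all genes. Without control replicate 3, 0 were called lower and 0 higher, beside 2.16% and 0.811% of all genes. Leaving out knockdown replicate 1 gave 0 lower and 0 higher, beside 1.22% and 0.35% of all genes. Leaving out knockdown replicate 2 gave 1 lower (Gp93) and 0 higher, beside 2.18% and 0.956%, and leaving out knockdown replicate 3 gave 4 lower and 0 higher, beside 4.16% and 1.16%.

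The members together held 0.821%, 0.884% and 0.728% of gene signal in the knockdown samples, against 1.11%, 1.004% and 0.950% in the controls. Muscle markers took a larger share of the knockdown libraries, as given above, and their part in the lower chaperone share was not tested. Levels per kilobase of exon spanned a wide range. The most abundant transcripts were l(2)efl at a mean of 68379 scaled counts per kilobase, Hsc70-4 at 47470 and Hsp83 at 11910, and the lowest was Hsp70Ba at 10.6.

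**Figure D1:**
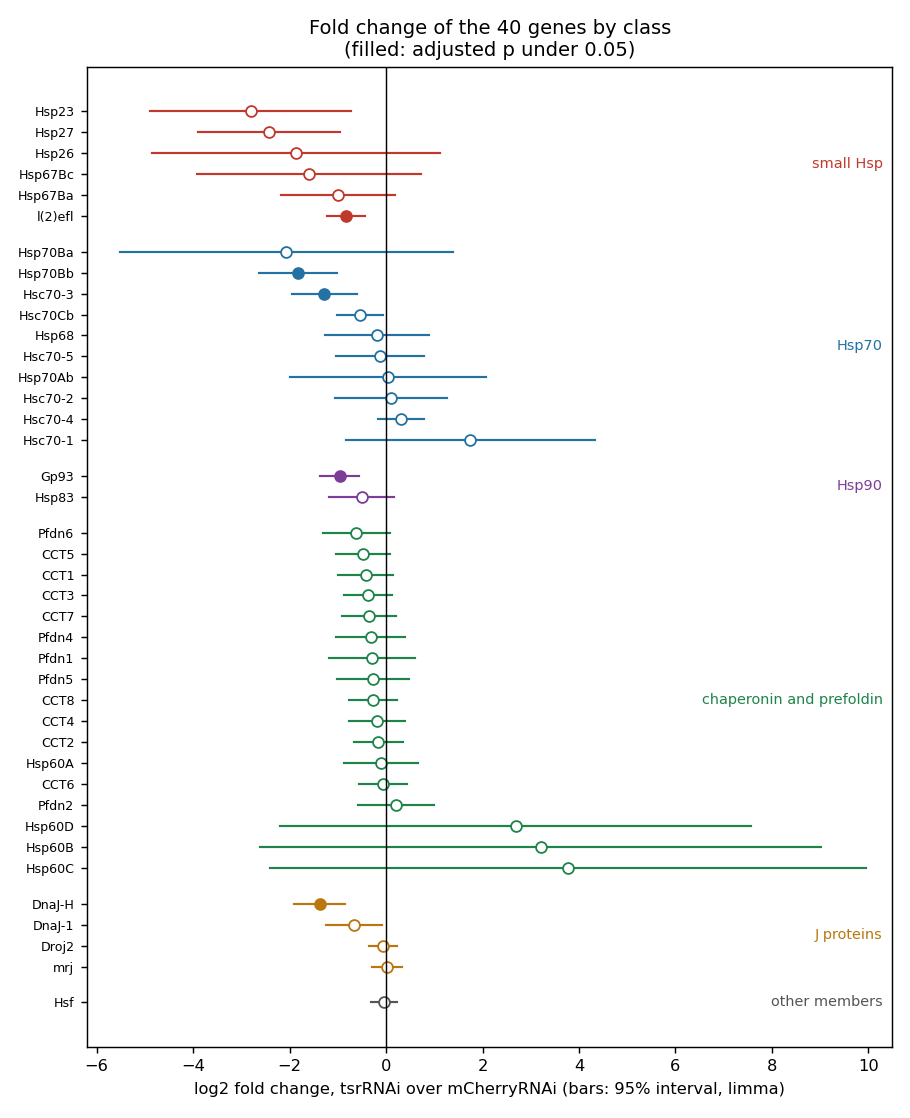
Log2 fold change of each of the 40 members (points, tsrRNAi over mCherryRNAi on the log2(scaled count + 1) scale, 3 samples each) with its 95% interval by limma (bars), grouped by class; filled points were called. The 5 called genes all lie below 0, and the widest intervals belong to Hsp60B, Hsp60C and Hsp60D.

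The small heat shock class had 6 members, all with a fold change below 0, and a class median of -1.73, which was -0.85 without control replicate 2. One, l(2)efl, was called. This gene (FBgn0011296, 2R:23684651-23685543 of BDGP6, dm6 coordinates, minus strand) encodes a small heat shock protein related to vertebrate alpha B-crystallin, which protects muscle filaments. It had 33901, 32268 and 43901 scaled counts in the knockdown and 63038, 69998 and 60908 in the control. The 3 knockdown samples all lay below the lowest control. The means were 36690 ± 6298 in the knockdown and 64648 ± 4754 in the control (SD, n = 3 each), and the log2 fold change was -0.83 (SE 0.16, 95% interval -1.23 to -0.43, limma adjusted p = 0.0316). The call held in 2 of 6 fits that left out 1 sample, with values from -0.96 to -0.74. St3 overlaps 10.1% of the exon length of l(2)efl, so some reads there may not have been assigned.

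The other small heat shock members, Hsp23, Hsp26, Hsp27, Hsp67Ba and Hsp67Bc, lie within 14.2 kb on chromosome arm 3L, from 9371511 to 9385694. Hsp22 of the same region was not analysed here. Hsp23 (FBgn0001224) had 1970, 1816 and 678 scaled counts in the knockdown, against 4954, 33801 and 5008 in the control. Hsp27 (FBgn0001226) had 2735, 2587 and 797 in the knockdown, against 6918, 18056 and 7172 in the control. In both genes every knockdown sample lay below every control, knockdown replicate 3 was lowest and control replicate 2 highest. The means of Hsp23 were 1488 ± 706 in the knockdown and 14588 ± 16639 in the control (SD, n = 3 each), and its log2 fold change was -2.81 (SE 0.85, 95% interval -4.89 to -0.73, limma adjusted p = 0.0873). Hsp27 averaged 2040 ± 1079 in the knockdown and 10715 ± 6359 in the control (SD, n = 3 each), with a log2 fold change of -2.44 (SE 0.60, 95% interval -3.91 to -0.97, adjusted p = 0.0535). Neither passed the threshold by limma, while DESeq2 gave adjusted p = 3.85e-04 for Hsp23 and 3.07e-04 for Hsp27.

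Control replicate 2 carried much of the spread of this cluster. Its level was 6.79 times the mean of the other controls for Hsp23, 12.2 times for Hsp26, 9.23 times for Hsp67Bc and 2.56 times for Hsp27, but 1.13 times for Hsp67Ba and for l(2)efl. Without it, both passed, Hsp23 at -1.89 on the log2 scale (adjusted p = 0.036) and Hsp27 at -1.98 (adjusted p = 0.0496). Against those 2 controls the knockdown mean was 0.299 times as high for Hsp23 and 0.290 times for Hsp27.

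The remaining cluster genes were not called. Hsp26 had 2492, 808 and 303 scaled counts in the knockdown and 1600, 16591 and 1120 in the control, so its groups overlapped (log2 fold change -1.87, adjusted p = 0.384). Without control replicate 2 its value was -0.66 (adjusted p = 0.608). Hsp67Bc, the fly counterpart of human HSPB8, had 79.8, 57.9 and 47.6 in the knockdown and 62.2, 842 and 120 in the control, also overlapping (-1.60, adjusted p = 0.344), with a value of -0.51 (adjusted p = 0.409) without control replicate 2. Hsp67Ba had 115, 131 and 41.8 in the knockdown and 138, 190 and 199 in the control. Its groups did not overlap (-1.003, adjusted p = 0.242), but the antisense gene asRNA:CR43481 covers 75.9% of its exon length, and reads of the pair cannot be told apart without knowing how strand was counted. All 5 cluster genes were lowest in knockdown replicate 3, and 4 of the 5 were highest in control replicate 2.

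Since ecdysone is a known inducer of this cluster, ecdysone-responsive genes are given beside it. The 13 such genes in the table summed to 28060, 33456 and 35657 scaled counts in the knockdown and 63728, 95067 and 79875 in the control. Of these, 5 were called lower (br, EcR, ImpE2, ImpE3 and ImpL2) and 1 higher (ftz-f1), and in 9 the knockdown lay wholly below the control, beside 7.02%, 4.58% and 19.6% of all genes. Eip78C, an ecdysone-induced receptor gene, had 39.9, 32.2 and 65.0 in the knockdown and 109, 10218 and 79.4 in the control, so control replicate 2 was far above the rest there too. Eip74EF, Eip93F, Hr3, Hr39, ImpE1, ImpE2 and ImpE3 were also highest in that library, whereas br, EcR, Eip75B, ImpL2 and ftz-f1 were not. EcR had 10088, 8852 and 11931 in the control. The heat shock RNA gene lncRNA:Hsromega had 4804, 4247 and 5281 in the knockdown and 4517, 15481 and 4264 in the control. Within the knockdown, the ecdysone sum, Eip78C and lncRNA:Hsromega were each highest in replicate 3, where the cluster genes were lowest. ImpE1 and Eip93F were lowest in that replicate, as the cluster genes were. In control replicates 1 and 3, lncRNA:Hsromega was within the knockdown range, as was Hsp26. Hsp67Bc was within its knockdown range in control replicate 1 only. Hsp23, Hsp27 and Hsp67Ba were above theirs in both controls. The part of ecdysone-responsive expression in the lower cluster values was not tested.

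**Figure D2:**
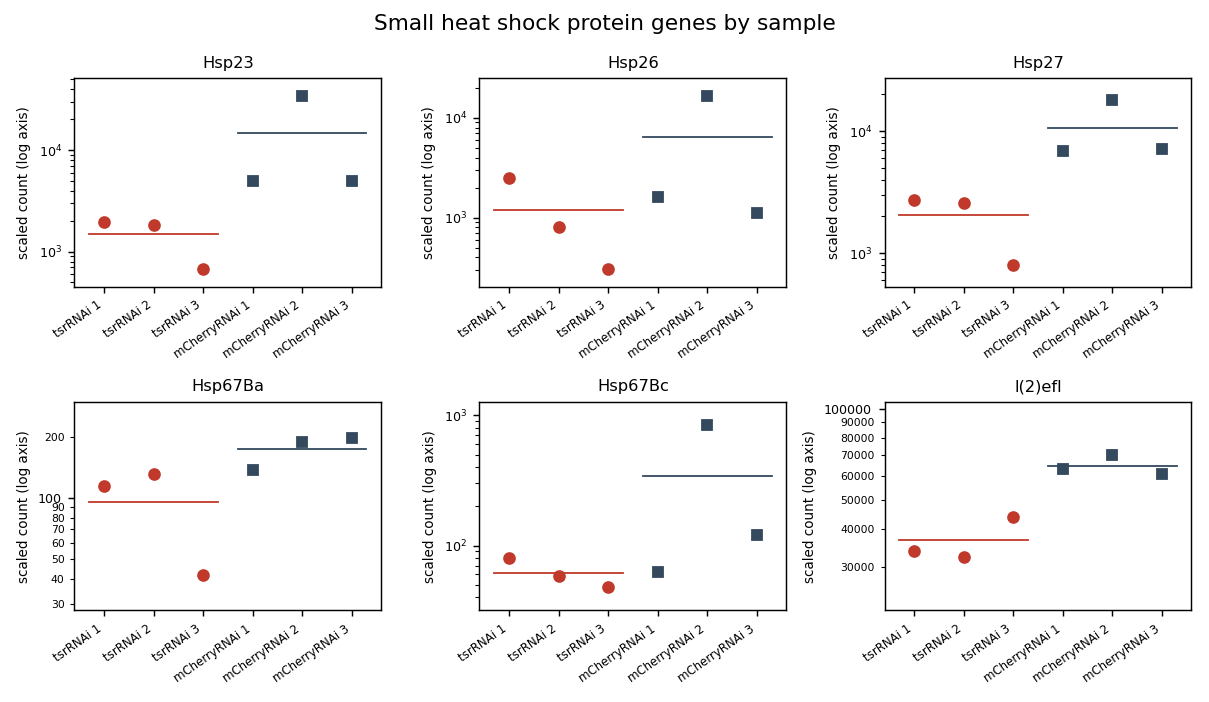
Scaled counts (log axis) of the 6 small heat shock genes in each sample, with the 3 tsrRNAi samples as circles on the left, the 3 mCherryRNAi samples as squares on the right and a line at each group mean. Control replicate 2 is far above the other controls for Hsp23, Hsp26 and Hsp67Bc, whereas l(2)efl differs little within groups and its groups do not overlap.

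The Hsp70 class had 10 members, 2 of them called lower, 6 below 0 and a median of -0.16. Hsc70-3 (FBgn0001218, X:11801696-11807117, minus strand), the fly BiP, is the Hsp70 of the endoplasmic reticulum (ER). It had 17576, 20927 and 10907 scaled counts in the knockdown and 47819, 33962 and 35771 in the control. Every knockdown sample lay below every control, and knockdown replicate 3 was the lowest. The means were 16470 ± 5100 in the knockdown and 39184 ± 7532 in the control (SD, n = 3 each), with a log2 fold change of -1.28 (SE 0.28, 95% interval -1.96 to -0.61, limma adjusted p = 0.0386). This call was lost under upper-quartile scaling (adjusted p = 0.0547), equal totals (0.0533) and edgeR (0.0568), and held in 1 of 6 fits that left out 1 sample, with values from -1.48 to -1.01.

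The heat-inducible Hsp70 genes are near-identical copies that are almost silent without heat, and reads that fit several copies were set apart in counting, so their values are uncertain. Hsp70Bb (FBgn0013278, 3R:12505793-12508139, plus strand) had 60.8, 36.7 and 73.2 scaled counts in the knockdown and 177, 210 and 203 in the control. Groups did not overlap, and the log2 fold change was -1.82 (SE 0.33, adjusted p = 0.0262), called in 2 of 6 fits that left out 1 sample. The other copies differed from it in pattern. Hsp70Ab had 42.9, 11.02 and 24.4 in the knockdown and 47.8, 8.97 and 24.4 in the control (log2 fold change 0.04, adjusted p = 0.979). Hsp70Ba had 37.9, 0.918 and 2.32 in the knockdown and 18.9, 76.2 and 10.8 in the control (-2.06, adjusted p = 0.399). Hsp70Bc, below the minimum and not tested, had 24.9, 5.51 and 0 in the knockdown and 5.56, 4.48 and 1.80 in the control. Hsp70Aa and Hsp70Bbb were not analysed here. Hsp68, another heat-inducible Hsp70, was far more abundant, at 8305, 9445 and 4446 in the knockdown and 9262, 12125 and 4591 in the control, and its groups overlapped (-0.19, adjusted p = 0.801).

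Hsc70-4 (FBgn0266599), the constitutive Hsp70 of the cytosol, was the most abundant Hsp70. It had 138148, 130517 and 157009 scaled counts in the knockdown and 138596, 101517 and 107788 in the control. The groups overlapped, with means of 141891 ± 13637 in the knockdown and 115967 ± 19847 in the control (SD, n = 3 each) and a log2 fold change of 0.30 (95% interval -0.18 to 0.78, adjusted p = 0.382). Hsc70-4 took 41.4%, 41.0% and 49.7% of the signal of the 40 members in the knockdown, against 29.7%, 24.3% and 29.98% in the control.

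The remaining Hsp70 genes were not called. Hsc70Cb, the Hsp110 that releases nucleotide from Hsp70, had 8128, 7865 and 5735 in the knockdown and 12705, 8878 and 9964 in the control, with no overlap (log2 fold change -0.54, adjusted p = 0.135). Hsc70-5, the mitochondrial Hsp70, had 4892, 5059 and 4492 in the knockdown and 9732, 3907 and 3805 in the control (-0.13, adjusted p = 0.843), where control replicate 1 alone was high. Hsc70-2 had 624, 510 and 455 in the knockdown and 274, 1002 and 424 in the control (0.10, adjusted p = 0.901). Hsc70-1 had 93.8, 105 and 88.3 in the knockdown and 27.8, 127 and 5.42 in the control (1.75, adjusted p = 0.351). Without control replicate 2, the only control above the knockdown samples, Hsc70-1 was called higher at 2.83 (adjusted p = 0.0283).

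The Hsp90 class had 2 members with a median of -0.74. Gp93 (FBgn0039562, 3R:27948711-27952151, plus strand), the Hsp90 of the ER, had 7676, 8471 and 5840 scaled counts in the knockdown and 15566, 12956 and 14003 in the control. All knockdown samples lay below the controls. The means were 7329 ± 1350 in the knockdown and 14175 ± 1313 in the control (SD, n = 3 each), and the log2 fold change was -0.96 (SE 0.17, 95% interval -1.37 to -0.56, adjusted p = 0.0221), called in 4 of 6 fits that left out 1 sample. Hsp83, the cytosolic Hsp90, had 37011, 29472 and 21133 in the knockdown and 53677, 33814 and 36408 in the control. One knockdown sample lay among the controls, and the log2 fold change was -0.51 (95% interval -1.17 to 0.16, adjusted p = 0.294).

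Of 9 tested genes listed as cochaperones of Hsp90, 1 was called lower, 0 were called higher, and in 6 the knockdown lay wholly below the control, beside 7.02%, 4.58% and 19.6% of all genes. The called gene was Cdc37, which delivers kinases to Hsp90, with 1364, 1447 and 1202 scaled counts in the knockdown and 1987, 1917 and 1736 in the control (log2 fold change -0.49, adjusted p = 0.0487). No fit that left out 1 sample kept this call, nor did edgeR (adjusted p = 0.0574), while DESeq2 called 3 of the 9 lower. Trap1, also in that list, is the Hsp90 of the mitochondrion and not a cochaperone. Its groups overlapped, with a log2 fold change of 0.16 (limma adjusted p = 0.694). Stip1 (FBgn0024352), added after its values were seen, had 3772, 3795 and 2384 in the knockdown and 6393, 5366 and 5111 in the control, without overlap (-0.79, adjusted p = 0.0664).

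Other folding genes of the ER are given beside Hsc70-3 and Gp93. Their list also held Atf6, Xbp1, Ire1 and PEK, regulators of the unfolded protein response. Of 11 listed genes tested, 4 were called lower, Atf6 among them, and 0 higher, beside 7.02% and 4.58% of all genes. In 7 the knockdown lay wholly below the control, beside 19.6% of all genes. Their median log2 fold change was -0.34, against 0.06 for all genes, and Cnx14D, Ero1L and Ire1 had values above 0. edgeR called 3 lower, losing Calr (adjusted p = 0.0514), and DESeq2 called 6 lower. The protein disulfide isomerase gene ERp60 had 12070, 14036 and 9016 scaled counts in the knockdown and 24819, 22234 and 24453 in the control (log2 fold change -1.05, adjusted p = 0.0221). Cnx99A, a calnexin that binds sugar-bearing proteins, had 4321, 4646 and 3575 in the knockdown and 7259, 6863 and 6425 in the control (-0.72, adjusted p = 0.0245). Calr, the calreticulin, had 16481, 17610 and 15047 in the knockdown and 29811, 22702 and 25241 in the control (-0.66, adjusted p = 0.0381). Pdi, a further disulfide isomerase, also had groups that did not overlap but was not called (-0.34, adjusted p = 0.148). In ERp60, Cnx99A and Calr, as in Hsc70-3 and Gp93, the lowest sample was knockdown replicate 3.

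Atf6, an ER stress sensor and transcription factor, had 1735, 1782 and 2073 in the knockdown and 2651, 2723 and 2636 in the control (log2 fold change -0.52, adjusted p = 0.0328). Other regulators of the unfolded protein response were not called, with fold changes of -0.19 for Xbp1, 0.06 for Ire1 and -0.29 for PEK (adjusted p = 0.407, 0.816 and 0.16). Leaving out 1 sample kept the call in 3 of 6 fits for ERp60, 2 for Cnx99A, 2 for Atf6 and 1 for Calr. CG2918, added after its values were seen, had 3611, 4048 and 2894 in the knockdown and 7705, 6122 and 5263 in the control (-0.85, adjusted p = 0.043). It was called in 1 of 6 fits that left out 1 sample and not by edgeR (adjusted p = 0.0587). Cuticle genes are made by the secreting epidermis. In 6 of 8 epidermal and cuticle markers the knockdown lay wholly below the control, beside 19.6% of all genes. Lcp1, Lcp2 and Cpr49Ac were called lower and Cpr47Eb higher, beside 7.02% and 4.58% of all genes. Edg78E was at 0 in knockdown replicate 1. The part of these epidermal levels in the lower ER folding values was not tested.

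**Figure D3:**
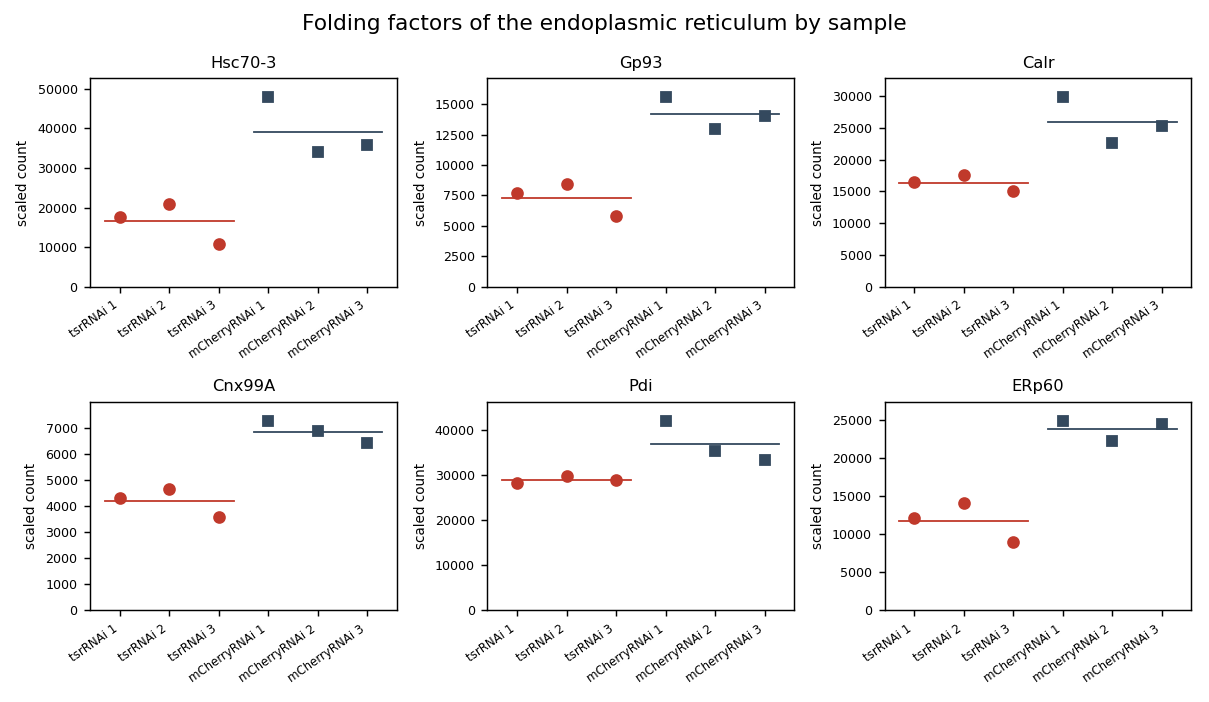
Scaled counts of 6 ER folding genes in each sample, with the 3 tsrRNAi samples as circles on the left, the 3 mCherryRNAi samples as squares on the right and a line at each group mean. In every panel the knockdown samples lie below the controls, and Pdi, which was not called, has a log2 fold change of -0.34. The genes shown were picked with their values known. Of the 11 other genes tested in the ER folding list, the 4 with overlapping groups are not shown. CaBP1, Atf6 and PEK, whose groups do not overlap, are not shown either.

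The chaperonin and prefoldin class had 17 members, with 0 called, 13 below 0 and a median of -0.27. Its lowest adjusted p-value was 0.223, and 0 of the 17 reached an unadjusted p-value under 0.05 by limma. DESeq2 and edgeR also called 0 of them. The 8 CCT genes encode the subunits of the cytosolic ring that folds actin. All 8 had fold changes below 0, from -0.48 for CCT5 to -0.06 for CCT6 (adjusted p from 0.233 to 0.852), although CCT6 turned to 0.03 under upper-quartile scaling. The mean over the 8 was 2488, 2482 and 2005 scaled counts per kilobase in the knockdown and 3787, 2233 and 2670 in the control. Within each library the subunits stayed close together, with a coefficient of variation over subunits of 11.9% to 15.2%.

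Control replicate 1 was the highest sample for 8 of 8 CCT genes, at 1.496 to 1.70 times the mean of the other controls. Against those other controls the knockdown mean was 0.833 to 1.09 times as high. CCT5, the subunit with the highest mean scaled count, had 5822, 5981 and 4408 in the knockdown and 9937, 5916 and 7053 in the control. Without control replicate 1 the class median was 0.06 and the fold changes of CCT2, CCT4 and CCT6 turned above 0, while the other 5 CCT genes stayed below 0.

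**Figure D4:**
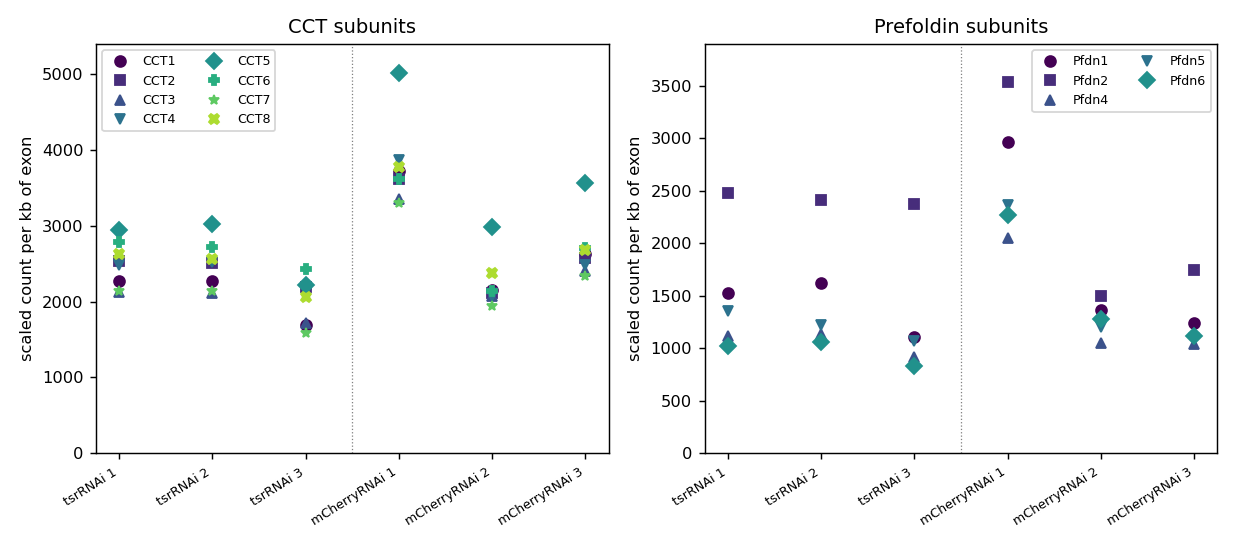
Scaled count per kilobase of exon of the 8 CCT subunits (left panel) and 5 prefoldin subunits (right panel) in each sample, 1 symbol per gene, with tsrRNAi samples left of the dotted line and mCherryRNAi samples right of it. All 13 genes are highest in control replicate 1.

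Prefoldin, the jellyfish-shaped complex that carries nascent actin and tubulin to CCT, showed a like pattern. Of its 5 members, 4 were below 0 and the median was -0.29. Mean levels were 1499, 1491 and 1259 scaled counts per kilobase in the knockdown and 2638, 1278 and 1248 in the control. All 5 were highest in control replicate 1, at 1.89 to 2.28 times the mean of the other controls. Pfdn6 was the only member of the class whose groups did not overlap, with 868, 898 and 703 in the knockdown and 1921, 1085 and 948 in the control (log2 fold change -0.62, adjusted p = 0.223). Pfdn2 had 2464, 2398 and 2361 in the knockdown and 3510, 1484 and 1730 in the control, and its value of 0.21 became 0.59, called higher (adjusted p = 0.037), once control replicate 1 was left out. The prefoldin gene mgr, listed in RefSeq under the synonym Pfdn3 and added after its values were seen, had 1805, 1756 and 1661 in the knockdown and 2447, 1202 and 1322 in the control, again highest in control replicate 1.

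The Hsp60 genes encode chaperonins of the mitochondrion. Hsp60A, the form used throughout the body, had 4983, 5205 and 4389 scaled counts in the knockdown and 8553, 3757 and 4398 in the control (log2 fold change -0.10, adjusted p = 0.845). Like the mitochondrial Hsc70-5, it was highest in control replicate 1. The other Hsp60 genes behaved differently. Hsp60B, known to be needed for sperm formation, had 221, 183 and 163 in the knockdown and 0, 934 and 8.12 in the control. Hsp60C had 639, 434 and 237 in the knockdown and 0, 1508 and 16.2 in the control. Hsp60D had 82.8, 48.7 and 37.2 in the knockdown and 0, 211 and 1.80 in the control. In each, all knockdown samples lay between control replicate 2 and the other controls.

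Control replicate 1 had no read of these 3 genes, which allows a level of up to 3.33 scaled counts (3 reads), an allowance for counting error only. The limma values were 3.21 for Hsp60B, 3.77 for Hsp60C and 2.69 for Hsp60D (adjusted p = 0.426, 0.393 and 0.427), whereas edgeR on the recovered reads gave -0.73, -0.21 and -0.33. No direction was thus established for them. Without control replicate 2 all 3 were called higher, at 5.96, 6.61 and 5.01 (adjusted p = 0.00954, 0.0142 and 0.00707). The 9 testis markers summed to 1638, 1006 and 542 scaled counts in the knockdown and 307, 3219 and 362 in the control. The sum had the same order of libraries as these Hsp60 genes, but not every marker did. The markers bam, vas, can and aly were highest in knockdown replicate 1, and the others in control replicate 2. Of these markers 0 were called. Mst84Da, aly and dj were at 0 in control replicate 1, whereas Mst87F had 263 there and bam 18.9, within their knockdown ranges. The part of testis RNA in the Hsp60B, Hsp60C and Hsp60D levels was not tested.

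**Figure D5:**
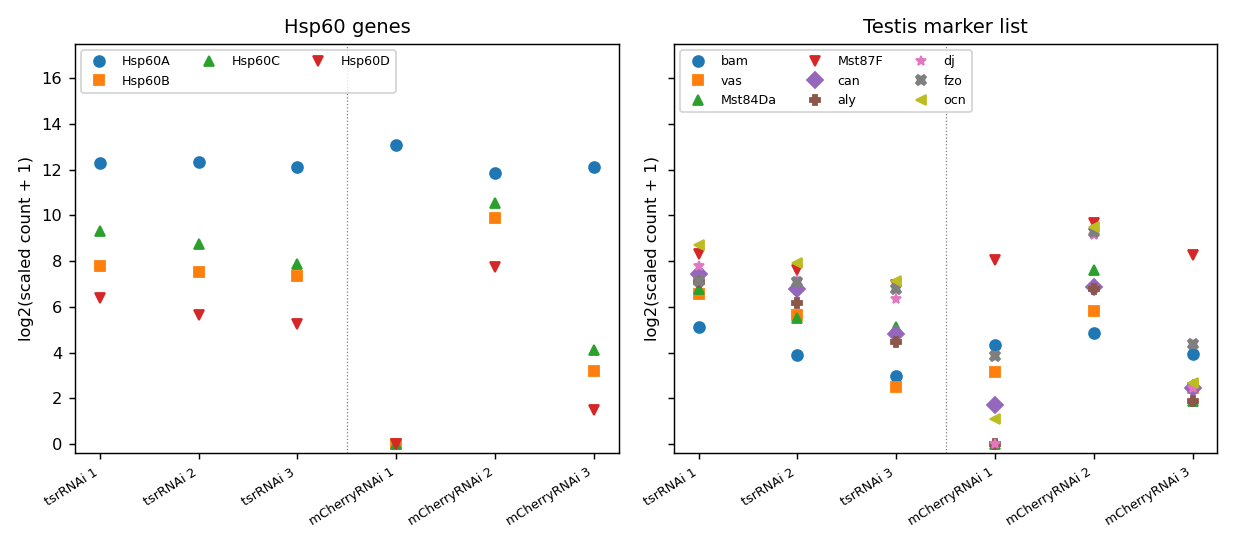
Levels as log2(scaled count + 1) of the 4 Hsp60 genes (left panel) and the 9 testis markers (right panel) in each sample, with tsrRNAi samples left of the dotted line and mCherryRNAi samples right of it. Hsp60B, Hsp60C and Hsp60D are highest in control replicate 2 and at 0 in control replicate 1, unlike Hsp60A.

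J proteins stimulate the ATPase of Hsp70 and hand it substrates. The class had 4 members, 1 of them called lower, 3 below 0 and a median of -0.36. DnaJ-H (FBgn0032474, 2L:13163209-13166072, minus strand) had 1124, 1216 and 1758 scaled counts in the knockdown and 2930, 4179 and 3460 in the control. The groups were far apart, with means of 1366 ± 343 in the knockdown and 3523 ± 627 in the control (SD, n = 3 each). Its log2 fold change of -1.38 (SE 0.22, 95% interval -1.91 to -0.85, adjusted p = 0.0176) had the smallest adjusted p-value of the 40 members. It was called in 3 of 6 fits that left out 1 sample, with values from -1.57 to -1.25. Sirt1 overlaps 22.8% of its exon length, which leaves its count uncertain.

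DnaJ-1, the main heat-inducible J protein, had 2762, 1916 and 1789 in the knockdown and 3254, 4314 and 2696 in the control. One knockdown sample lay just above the lowest control (log2 fold change -0.67, 95% interval -1.25 to -0.08, adjusted p = 0.129). Droj2, the most abundant of the class, had 9101, 9206 and 8969 in the knockdown and 11021, 8648 and 8989 in the control (-0.06, 95% interval -0.36 to 0.23, adjusted p = 0.752). mrj, a counterpart of human DNAJB6 that limits protein aggregation, had 3637, 3506 and 4076 in the knockdown and 3771, 4088 and 3200 in the control (0.03, 95% interval -0.29 to 0.34, adjusted p = 0.911).

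Among 11 genes listed as J proteins with other names, 2 were called lower and 0 higher, and in 8 the knockdown lay wholly below the control, beside 7.02%, 4.58% and 19.6% of all genes. edgeR called 0 of them, whereas DESeq2 called 6 lower and 1 higher. The list included Tom70, which is not a J protein. Tom70 was not called, and its groups overlapped. P58IPK, a J protein of the ER, had 1438, 1264 and 1063 in the knockdown and 2905, 3118 and 1822 in the control (log2 fold change -1.03, adjusted p = 0.0452, edgeR 0.0509). Tpr2, a cytosolic J protein with tetratricopeptide repeats, had 4252, 4194 and 4196 in the knockdown and 6920, 12086 and 6981 in the control (-0.99, adjusted p = 0.0462, edgeR 0.0508). Leaving out 1 sample kept the call in 2 of 6 fits for P58IPK and 1 of 6 for Tpr2. In Tpr2 the knockdown samples were nearly equal while control replicate 2 was again the highest.

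Of 6 cochaperones of Hsp70, 1 was called higher and 1 lower, beside 4.58% and 7.02% of all genes. The higher one was stv (starvin), the fly BAG3, which works with Hsc70-4 and Hsp67Bc to clear damaged muscle proteins. It had 14877, 13400 and 15750 scaled counts in the knockdown and 6296, 5394 and 5932 in the control, with a log2 fold change of 1.32 (adjusted p = 0.00417) that was called in 6 of 6 fits that left out 1 sample. Its partners among the members were not called higher, at 0.30 for Hsc70-4 and -1.60 for Hsp67Bc, the second resting largely on control replicate 2 as given above. The lower one was HIP-R, of the Hsp70-interacting protein family, with a log2 fold change of -0.71 (adjusted p = 0.041), which edgeR did not call (adjusted p = 0.051) and which was called in 1 of 6 fits that left out 1 sample.

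Hsf (FBgn0001222), the transcription factor that switches on heat shock genes, had the smallest standard error of the members (0.11). It had 1446, 1431 and 1590 scaled counts in the knockdown and 1427, 1508 and 1669 in the control. The log2 fold change was -0.04 (95% interval -0.31 to 0.22, adjusted p = 0.82), so its transcript differed by less than the spread between samples. Activity of Hsf is set largely by its protein state, which was not measured. Of 6 other stress regulators tested, 1 was called lower and 0 higher, beside 7.02% and 4.58% of all genes. It was Dsor1, the kinase above ERK, at -0.54 (adjusted p = 0.0291), while DESeq2 called 2 lower and 2 higher. crc, the fly ATF4, lay above the control in every knockdown sample but was not called (0.49, adjusted p = 0.0667).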

How the data were processed

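RNA was extracted with Trizol and amplified into libraries with a SMARTer kit, per the labels' protocols. The submitters' processing notes name STAR 2.5.0a, Picard, HTSeq 0.5.3 and genome build dm6, without order. The authors deposited 1 table of signal values, which are gene read counts scaled by a size factor for each sample, as the values show: 100% of values in each column were whole multiples of 1 step within 0.01, so reads could be recovered. Strand setting and annotation release are not given in the sources used here. Rows for reads outside genes (19.4% to 27.0% of reads per sample) stayed out of library totals and tests. Gene positions and exon lengths come from the BDGP6 annotation, and 13478 of the 13517 gene identifiers matched it. Symbols turned into dates by spreadsheet software (5 genes) were restored by identifier.

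limma 3.58.1 (lmFit, eBayes with a trend, R 4.3.3) was fitted to log2(scaled count + 1) of all 6 samples, for the 11720 genes whose mean reached 10, with no covariate, a Benjamini-Hochberg threshold of 0.05 and two-sided tests. The added 1 shrinks changes of low genes. Fold changes run knockdown over control. Alternatives were pseudocounts of 0.5 and 5, no minimum mean or 50, TMM, upper-quartile and equal-total scaling, a replicate block, leaving out each sample, and edgeR 4.0.16 (quasi-likelihood) and DESeq2 1.42.0 on the recovered reads. The tests were tested on simulated data with known changes. Reads carry no molecular identifiers, so floors cover counting error only. The labels give no sequencing batch.

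The members and lists were chosen with earlier results of these data known. Values in every sample are given for called members, the most abundant member of each class, members whose groups do not overlap and members with a role the class is known for, and up to 3 called genes per partner list are named. Calr, Pdi, Xbp1, Ire1, PEK, crc, lncRNA:Hsromega and the other members given sample by sample were named after their values were seen. So were Trap1, Tom70 and the single testis and ecdysone-responsive genes.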

Additional observations from a re-analysis of the deposited data

How the results depend on the processing

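Of the 5 called members, all kept their call under pseudocounts of 0.5 and 5, with no minimum mean, with a minimum mean of 50 and under TMM scaling, and only Hsc70-3 lost it under upper-quartile scaling, equal totals and edgeR. The median of all genes was 0.06 by limma, -0.09 by edgeR and -0.08 by DESeq2. Counts over all genes changed with the tool and the samples. Higher calls numbered 537, against 340 by edgeR with DESeq2 size factors, 1258 by DESeq2 and 41 to 2426 when 1 sample was left out. Lower calls numbered 823, against 1569 by DESeq2 and 143 to 921 when 1 sample was left out. Leaving out 1 sample gave 0 to 4 members higher and 0 to 7 lower. The tsr value ran from -2.43 to -2.13 over these fits, the Hsp70 class median from -0.46 to -0.043 and the small heat shock class median from -2.36 to -0.85. The same replicate numbers name separate pools, and same-numbered samples did not deviate together (correlations of -0.46, -0.03 and 0.19), so they were not taken as pairs. The fit with the replicate block called 24 genes higher and 88 lower, and 0 members either way. Some uncalled members changed sign. Under edgeR with TMM the log2 fold change was -0.11 for Hsc70-2, -0.077 for Hsp70Ab, -0.73 for Hsp60B, -0.21 for Hsp60C, -0.33 for Hsp60D and -0.0014 for mrj. With DESeq2 size factors in edgeR it was -0.088 for Hsc70-2, -0.067 for Hsp70Ab, -0.70 for Hsp60B, -0.19 for Hsp60C and -0.30 for Hsp60D. DESeq2 gave -0.088 for Hsc70-2, -0.068 for Hsp70Ab and -0.19 for Hsp60C, and also -0.71 for Hsp60B and -0.31 for Hsp60D, for which it gave no adjusted p-value. Upper-quartile scaling gave 0.029 for CCT6, 0.030 for Droj2 and 0.051 for Hsf, and TMM scaling -0.0045 for mrj. Leaving out 1 sample gave values from -0.31 to 0.62 for Hsc70-2, from -0.36 to 0.32 for Hsc70-5, from -0.59 to 0.14 for Hsp68, from -0.57 to 0.58 for Hsp70Ab, from -0.34 to 0.049 for CCT2, from -0.38 to 0.063 for CCT4, from -0.25 to 0.13 for CCT6, from -0.34 to 0.25 for Hsp60A, from -0.52 to 0.11 for Pfdn1, from -0.034 to 0.59 for Pfdn2, from -0.48 to 0.0034 for Pfdn4, from -0.48 to 0.074 for Pfdn5, from -0.13 to 0.044 for Droj2, from -0.073 to 0.10 for mrj and from -0.093 to 0.02 for Hsf. No value that changed sign was called. The causes of these changes were not tested.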

Other observations

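Genes of the same families with other names gave further values. Of the small heat shock family, CG14207 had 20141, 19407 and 26208 scaled counts in the knockdown and 38348, 36991 and 28656 in the control (log2 fold change -0.66, limma adjusted p = 0.0682). CG7409 had 164, 177 and 237 in the knockdown and 123, 81.8 and 98.4 in the control (0.92, adjusted p = 0.0823), and CG13133 had 79.8, 53.3 and 96.4 in the knockdown and 36.7, 30.3 and 40.6 in the control (1.04, adjusted p = 0.137). The groups of these 3 genes did not overlap, and none was called. CG5001, a J protein gene added after its values were seen, had 11956, 10221 and 13143 in the knockdown and 7047, 6232 and 4540 in the control, and rose by 1.003 on the log2 scale (adjusted p = 0.0298). This call held in 2 of 6 fits that left out 1 sample.

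The members also differ in gene structure. The 12 with a single exon block, among them 5 of the 6 small heat shock genes, Hsp68, DnaJ-1 and the inducible Hsp70 copies, had a median log2 fold change of -1.30, with 9 below 0 and 1 called. The 28 members with more exon blocks had a median of -0.27, with 22 below 0 and 4 called. Of all genes tested, 46.1% were below 0, 7.02% were called lower and 11.6% were called in either direction. The median standard error was 0.84 for members with a single block and 0.23 for the others. The largest, 2.53, belonged to Hsp60C, which has 3 exon blocks. These classes were compared as a description, and the part of gene structure in the result was not tested.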
